A study of Mus musculus with 24 samples.

Results

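The genes described here are *Rest*, which encodes the RE1-silencing transcription factor REST, and 8 genes for the corepressors that REST brings to DNA. The rule takes them by gene symbol and uses no measured value, although it was drawn up with earlier results of these data known, and all 9 were found among the 18647 genes of the deposited table and passed the filter on low counts. RNA was sequenced from hippocampal CA1, microdissected from 400 µm slices of C57Bl/6N mice (Charles River) at least 60 days old. All mice, controls included, received 1 mg/kg scopolamine methyl nitrate and, 20 min later, either 335 mg/kg pilocarpine hydrochloride or saline. Pilocarpine is a muscarinic agonist that induces status epilepticus (SE), a prolonged seizure, and scopolamine methyl nitrate limits its effects outside the brain. Only pilocarpine-injected mice that developed SE were used, and diazepam (4 mg/kg), which damps the seizure, was given 40 min after its onset, with controls (Ctr) handled in the same way apart from pilocarpine. Tissue was taken at 5 times after SE, the earliest being 6 h, followed by 12 and 24 h and lastly 36 and 72 h. Ctr tissue was taken at 12 and 36 h and again at 72 h, and each of the 8 groups had 3 libraries. The labels call these libraries replicates without saying that each came from a separate animal, so that the p-values measure the spread between libraries, which may in part be technical.

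REST is a zinc-finger repressor that binds the RE1 element near many genes for ion channels, receptors, synaptic proteins and neuropeptides. It is kept low in most mature neurons and is present in glia and in non-neural cells. Its N-terminal part binds SIN3A (*Sin3a*), a scaffold that carries the histone deacetylases HDAC1 and HDAC2 (*Hdac1*, *Hdac2*). Its C-terminal part binds a CoREST protein (*Rcor1*, *Rcor2* or *Rcor3*), which holds the same deacetylases together with the histone H3 lysine demethylase LSD1 (*Kdm1a*). The histone H3 lysine 9 methyltransferase G9a (*Ehmt2*) is also brought in by REST. In rodent seizure models REST is known as a factor that responds to neuronal activity.

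Depth and tissue were checked before the genes were compared. Library totals ran from 2663936 counts, in Ctr 72 h replicate 3, to 30133731, with a median of 13521590. Markers of CA1 pyramidal cells were detected in every library, with a summed level of 293 to 1410 CPM (counts scaled by the normalized library total), and those of dentate granule cells, from the neighbouring field, at 3.24 to 229. The summed CA1 markers were 704 to 1410 CPM in controls and 293 to 644 at 72 h after SE, with no overlap. Both the lowest CA1 value (293) and the highest dentate value (229) came from SE 72 h replicate 1, so that its tissue differed from that of the other libraries. The summed level of 12 neuronal markers was 13000 to 19900 CPM in controls and 9590 to 11800 from 12 to 72 h after SE. Of these 12, *Snap25*, *Tubb3*, *Nefm* and *Stmn2* are also among the RE1 genes described further on. Summed microglial markers were 306 to 401 CPM in controls, 210 to 235 at 6 h and 1250 to 1810 at 72 h, and summed astrocyte markers were 4890 to 6000 CPM in controls and 12900 to 14400 at 72 h. Apart from the rest stood 6 libraries. Ctr 72 h replicate 2, SE 6 h replicate 3, SE 12 h replicate 1, SE 36 h replicate 3 and SE 72 h replicates 1 and 2 held 347 to 1810 summed CPM of genes of sensory ganglia and their nerve sheath, against 8.92 to 72.4 in the other 18 (in the following, the 6 libraries). Where their omission ended a call on a gene named here, the value without them is given beside it.

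Levels of different genes can be compared only per length, here as CPM per kb of annotated exon. In controls, *Rest* had the lowest of the 9, with a median of 0.547 CPM per kb over 9 libraries. *Rcor3* followed at 1.97, *Rcor2* at 3.21, *Rcor1* at 4.26 and *Sin3a* at 5.41. *Hdac1* had 6.86 CPM per kb, *Kdm1a* 12.9, *Hdac2* 14.9 and *Ehmt2*, the most abundant, 47.6. The controls of *Rest* (0.246 to 0.758) lay below those of each corepressor gene, while neighbours in this order such as *Rcor2* (2.72 to 5.58) and *Rcor1* (2.25 to 4.75) overlapped. After SE the median of *Rest* was 1.68 CPM per kb over 15 libraries, between those of *Rcor2* (1.63) and *Rcor1* (4.51), and *Rcor3* was then lower, at 1.32.

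**Figure D1:**
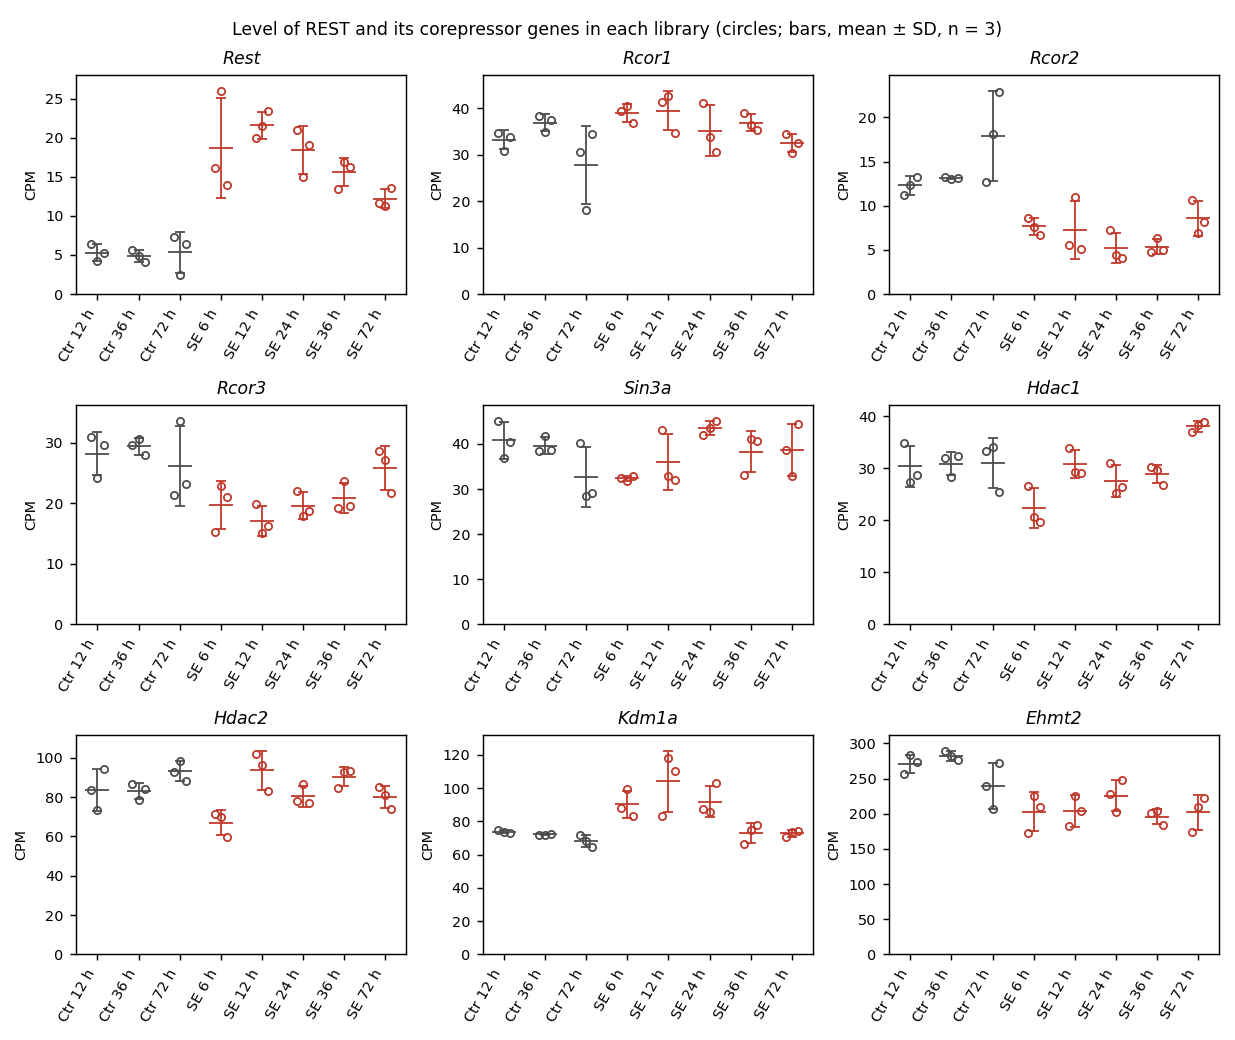
Level of each of the 9 genes in CPM (vertical axis, from 0, different for each gene) in the 8 groups (horizontal axis; grey, Ctr; red, SE). Circles are libraries and bars are mean ± SD of 3. All SE libraries of Rest (11.3 to 26 CPM) lie above all Ctr libraries (2.39 to 7.34), and those of Rcor2 (4.13 to 11) lie below all Ctr libraries (11.2 to 22.9).

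*Rest* was up-regulated at every time point after SE, 4.07-fold at 12 h and still above controls at 72 h. Among the 9 genes it was the only one called higher in any comparison of SE with control. The Ctr libraries held 6.34, 4.29 and 5.30 CPM at 12 h, 5.68, 4.85 and 4.11 at 36 h, and 7.34, 2.39 and 6.37 at 72 h. The SE libraries held 16.1, 26 and 14 CPM at 6 h, 20.0, 21.5 and 23.4 at 12 h, and 21, 15 and 19.1 at 24 h. They then held 13.5, 16.9 and 16.2 CPM at 36 h and 11.7, 11.3 and 13.6 at 72 h. No SE library overlapped any Ctr library, and the lowest control, Ctr 72 h replicate 2, is one of the 6 libraries with ganglion genes. How many of all genes also lacked overlap was not counted. A lack of overlap is therefore given here and below as a description only. At these depths the values rest on 14 to 137 counts per Ctr library and 118 to 650 per SE library.

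A gene was called differentially expressed (a DEG) where edgeR's quasi-likelihood test gave an adjusted p no higher than 0.05 and the log2 fold change (log2FC) was 0.66 or more in size. SE 6 h and SE 24 h, which have no control of their own time, were compared with the mean of the 3 Ctr groups, and so share those controls with each other and with the remaining comparisons. The log2FC of *Rest* was 1.87 at 6 h (s.e. 0.16, edgeR adjusted p = 3.15e-08), a fold of 3.65. At 12 h it was 2.02 (s.e. 0.21, edgeR adjusted p = 7e-07), a fold of 4.07. It was 1.86 at 24 h (s.e. 0.16, edgeR adjusted p = 1.41e-08) and 1.68 at 36 h (s.e. 0.21, edgeR adjusted p = 5.09e-06). *Rest* was called at each of these times, as it was at 72 h, where the log2FC was 1.29 (s.e. 0.23, edgeR adjusted p = 0.000291). Of all 18153 genes tested, 15.8%, 13.9%, 14.9%, 12.7% and 15.2% were called higher in the order of the times, so that a call in this direction was not rare. Without the 6 libraries the log2FC was 1.86, 2.09, 1.68, 1.63 and 0.96 in the order of the times, called from 6 to 36 h. The value at 72 h then rests on 1 SE library, which the fit assumes to vary like the libraries of the other groups, and its call (edgeR adjusted p = 0.0387) carries no replicate check in the SE arm. With single libraries left out, the value at 72 h was lowest without Ctr 72 h replicate 2 (0.80, edgeR adjusted p = 0.0241) and highest without Ctr 72 h replicate 1 (1.65), and was called in each case.

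The means of *Rest* were in the order SE 12 h (21.6 ± 1.72 CPM, SD, n = 3), SE 6 h (18.7 ± 6.39), SE 24 h (18.4 ± 3.09), SE 36 h (15.6 ± 1.83) and SE 72 h (12.2 ± 1.25). Below these came Ctr 72 h (5.37 ± 2.63), Ctr 12 h (5.31 ± 1.03) and Ctr 36 h (4.88 ± 0.79). Consecutive SE time points were not told apart: the log2FC of each time over the one before was 0.23, −0.23, −0.24 and −0.36, with edgeR adjusted p of 0.276 to 0.584. The SE effect at 72 h minus that at 12 h was −0.73 (s.e. 0.31, edgeR adjusted p = 0.0942), which missed the threshold. This difference depended on the controls at 72 h: it was −1.23 and was called without Ctr 72 h replicate 2, was −0.37 (edgeR adjusted p = 0.476) without Ctr 72 h replicate 1, and was −1.14 (edgeR adjusted p = 0.0519, not called) without the 6 libraries. *Rest* was not called between any pair of Ctr groups, with log2FC of −0.12 to 0.02. The values for Ctr 72 h depended on single libraries. With each left out in turn, they ran from −0.34 to 0.51 over Ctr 36 h and from −0.46 to 0.40 over Ctr 12 h, never called. In bulk tissue, fewer cells of a type and less RNA per cell cannot be told apart, and the part of changes in cell type markers in the level of *Rest* was not tested. Summed markers of vascular cells were 320 to 469 CPM in the SE libraries and 179 to 253 in controls, with no overlap at any of the 5 times, as for *Rest*. At 6 h, when *Rest* was already called, summed microglial markers were below all controls, while summed astrocyte markers, at 6650 to 7260 CPM, were above all controls (4890 to 6000), as were those of oligodendrocytes (5490 to 5790 against 2480 to 4400).

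*Rest* lies on chromosome 5 at 77408131 to 77434284 (GRCm39, plus strand). Reads were counted without regard to strand, and 694 bases of its exons overlap a noncoding gene on the other strand, Gm71939, that is not in the deposited table. Counts pool all transcripts of a gene, so that the truncated splice form of REST found in neurons is not separated from the full-length form.

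The CoREST genes moved in the other direction or stayed under the threshold. *Rcor2*, the CoREST paralog best known from neural progenitors and developing neurons, was down-regulated in all 5 comparisons of SE with control. Its Ctr libraries held 11.2, 12.4 and 13.2 CPM at 12 h, 13.2, 13 and 13.1 at 36 h, and 12.7, 18.1 and 22.9 at 72 h. The SE libraries held 8.63, 7.64 and 6.67 CPM at 6 h, 5.57, 11 and 5.10 at 12 h, and 7.22, 4.40 and 4.13 at 24 h. At 36 h they held 4.74, 6.38 and 5.01 CPM and at 72 h 10.7, 6.87 and 8.14. Every SE library lay below every control, by a narrow margin for SE 12 h replicate 2.

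The log2FC of *Rcor2* was −0.89 at 6 h (s.e. 0.24, edgeR adjusted p = 0.00608) and −0.75 at 12 h (s.e. 0.28, edgeR adjusted p = 0.0391). It was −1.45 at 24 h (s.e. 0.25, edgeR adjusted p = 0.000128), the largest decrease of the 9 genes, and −1.29 at 36 h (s.e. 0.28, edgeR adjusted p = 0.00165). At 72 h it was −1.02 (s.e. 0.29, edgeR adjusted p = 0.0112). Among all genes tested, 6.21%, 11.4%, 9.21%, 8.91% and 4.21% were called lower in that order of times. The calls at 12 and 72 h were the least firm. At 12 h the call was lost without any 1 of Ctr 12 h replicates 1, 2 and 3 and SE 12 h replicates 1 and 3, with log2FC of −0.81 to −0.56, and without the 6 libraries it was −0.63 (edgeR adjusted p = 0.103). It was also lost with scaling by library total only (−0.71) and in a fit of the compared groups only (−0.74). At 72 h it was lost without Ctr 72 h replicate 3 (−0.80), without SE 72 h replicate 2 (−0.89) and without the 6 libraries (−1.06, edgeR adjusted p = 0.105). With the range of the sample numbers, an assumed batch, as a factor, both calls were lost, at −0.73 (edgeR adjusted p = 0.0996) and −1.20 (edgeR adjusted p = 0.0694). SE 72 h and Ctr 72 h share no range, so that this fit can separate the range from SE there only through other groups. *Rcor2* lies on chromosome 19 at 7241690 to 7252591 (GRCm39, plus strand) and shares 59 exon bases with *Mark2* on the other strand.

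*Rcor3*, the third CoREST paralog, was called lower at 12 h only. Its Ctr libraries held 30.9, 24.2 and 29.6 CPM at 12 h and its SE libraries 19.8, 15.1 and 16.2, with no overlap. The log2FC was −0.73 (s.e. 0.15, edgeR adjusted p = 0.000962), and −0.65, under the fold threshold, both without SE 12 h replicate 2 and with the range of the sample numbers as a factor. At 6, 24 and 36 h it was −0.49, −0.50 and −0.49, with edgeR adjusted p of 0.00554, 0.00449 and 0.0189, under the fold threshold. By 72 h the SE libraries (28.6, 27.2 and 21.7 CPM) overlapped those of Ctr (21.4, 33.6 and 23.2), and the log2FC was 0.02 (s.e. 0.16). The SE effect at 72 h minus that at 12 h was 0.75 (s.e. 0.22, edgeR adjusted p = 0.0192), the one call among the 9 genes in this test, which called 18.6% of all genes. This call was lost when replicate 1 of Ctr 72 h (0.61), replicate 2 of SE 12 h (0.67) or replicate 1 of SE 72 h (0.68) was left out, with no RUVr factor, and without the 6 libraries (0.82, edgeR adjusted p = 0.0593). In the tests of 36 h minus 12 h and 72 h minus 36 h, which called 3.38% and 4.81% of all genes, none of the 9 was called. Without the 6 libraries *Kdm1a* was called in the first of these (−0.66, edgeR adjusted p = 0.0114). *Rcor3* lies on chromosome 1 at 191782846 to 191822370 (GRCm39, minus strand) and shares 1136 exon bases with genes on the other strand, so that its counts are uncertain to that extent.

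*Rcor1*, the founding CoREST gene, was called in no comparison. Its log2FC was 0.28, 0.26, 0.13, 0.00 and 0.27 in the order of the times, with an edgeR adjusted p of 0.0285 at 6 h and of 0.1 to 0.998 later. The 3 CoREST genes thus had different values after SE, with *Rcor2* at a log2FC of −1.45 and *Rcor1* at 0.13 at 24 h. The difference between the paralogs was not tested. *Rcor1* (chromosome 12, 111005769 to 111082338, GRCm39, plus strand) shares 1934 exon bases with Gm48632 on its own strand, which is not in the deposited table.

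**Figure D2:**
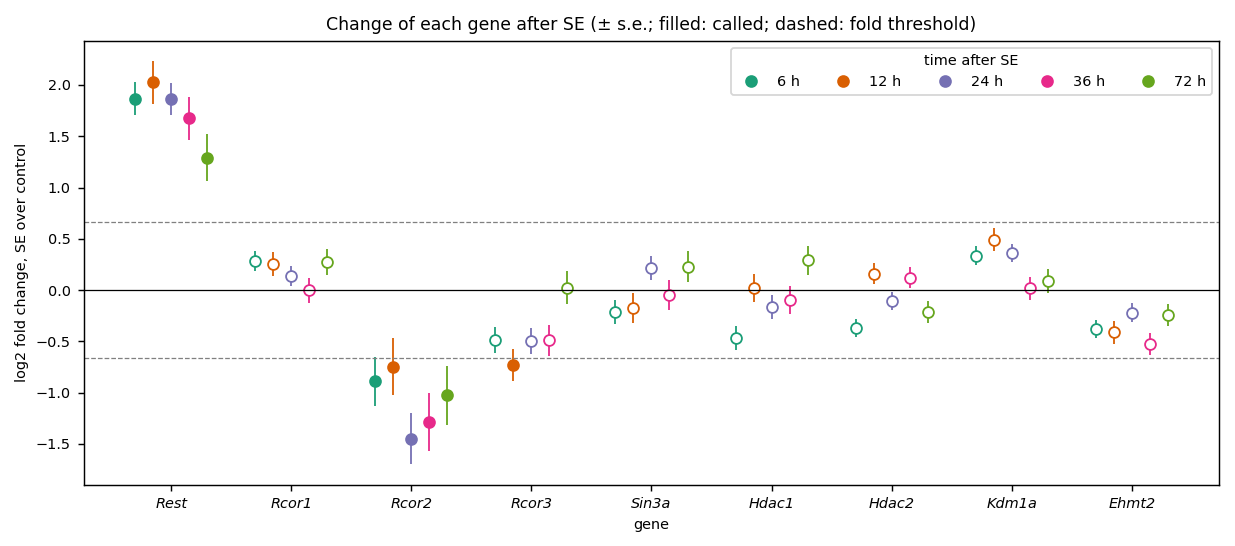
Log2FC of SE over Ctr (vertical axis) for each of the 9 genes (horizontal axis) at 5 times (colors), with bars of ± s.e. Filled points were called and dashed lines mark 0.66 in both directions. Rest is above the upper line at all 5 times, Rcor2 below the lower line at all 5, Rcor3 at 12 h, and the other 6 genes lie between the lines.

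The enzyme genes changed by less than the fold threshold. *Kdm1a*, the LSD1 demethylase gene, had Ctr levels of 64.5 to 74.8 CPM. After SE its libraries held 88.2, 99.3 and 83.1 CPM at 6 h, 83.4, 118 and 110 at 12 h, and 87.5, 85.6 and 103 at 24 h, all above every control. At 36 h (66.6, 74.8 and 78.1) and 72 h (70.5, 73.8 and 74.3) they overlapped the controls. The log2FC was 0.34 at 6 h (s.e. 0.09, edgeR adjusted p = 0.00596), 0.49 at 12 h (s.e. 0.11, edgeR adjusted p = 0.00183) and 0.36 at 24 h (s.e. 0.09, edgeR adjusted p = 0.0031). It was 0.02 at 36 h and 0.09 at 72 h, with edgeR adjusted p of 0.918 and 0.607. *Kdm1a* (chromosome 4, 136277846 to 136330106, GRCm39, minus strand) shares 631 exon bases with *Luzp1* on the other strand.

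*Ehmt2*, the G9a gene, was lower by less than the threshold. Its Ctr libraries held 207 to 289 CPM and its SE libraries 172 to 248. At 6, 12 and 36 h the log2FC was −0.38, −0.41 and −0.53, with edgeR adjusted p of 0.00258, 0.00536 and 0.000926. At 24 h (−0.22) and 72 h (−0.24) the edgeR adjusted p was 0.0579 and 0.103. *Ehmt2* lies on chromosome 17 at 35117256 to 35133048 (GRCm39, plus strand) and overlaps no other annotated gene.

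Both deacetylase genes had their lowest values at 6 h. *Hdac2* held 71.3, 69.9 and 59.9 CPM there, below every Ctr library (73.4 to 98.6). Its log2FC at 6 h was −0.37 (s.e. 0.09, edgeR adjusted p = 0.00222), and at 12 h, with 102, 96.2 and 82.9 CPM, it was 0.16 (edgeR adjusted p = 0.233). Between SE 6 h and SE 12 h *Hdac2* differed by 0.48 (s.e. 0.10, edgeR adjusted p = 0.0136), less than the log2FC of 1 that was asked between SE time points. *Hdac1* held 26.7, 20.7 and 19.7 CPM at 6 h against 25.5 to 34.9 in controls, an overlap by SE 6 h replicate 1, with a log2FC of −0.46 (s.e. 0.12, edgeR adjusted p = 0.00344). At 72 h *Hdac1* held 37.0, 38.4 and 39 CPM, above the Ctr 72 h libraries (33.4, 34.1 and 25.5), with a log2FC of 0.29 (edgeR adjusted p = 0.131). *Hdac1* (chromosome 4, 129409895 to 129436631, minus strand) and *Hdac2* (chromosome 10, 36850435 to 36877890, plus strand; both GRCm39) overlap no other annotated gene.

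*Sin3a*, the scaffold of the second complex, showed no change beyond the spread. Its libraries held 28.5 to 45.1 CPM in controls and 31.8 to 45.1 after SE, and its log2FC ran from −0.21 at 6 h to 0.23 at 72 h, with edgeR adjusted p of 0.156 to 0.828. It lies on chromosome 9 at 56979324 to 57037381 (GRCm39, plus strand), and 688 of its exon bases overlap genes on the other strand, among them *Man2c1os*.

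Counting the 9 genes together, 2, 3, 2, 2 and 2 were called in the order of the times. Of all genes, 15.8%, 13.9%, 14.9%, 12.7% and 15.2% were called higher at those times and 6.21%, 11.4%, 9.21%, 8.91% and 4.21% lower. The counts of the 9 are thus too small to be set apart from these shares. On the adjusted p alone, 8, 5, 4, 4 and 2 passed. The same rule passed 39.9%, 38.5%, 41.3%, 31.7% and 28.1% of all genes at those times. Between consecutive SE time points, where 1.34%, 3.18%, 0.529% and 4.13% of all genes were called, none of the 9 was called. Nor was any called between Ctr groups, where 0.0% of genes were called between 12 and 36 h, 1.97% between 36 and 72 h and 0.931% between 12 and 72 h. The median log2FC of the 9 was −0.37 at 6 h and 0.09 at 72 h, beside 0.06 and 0.10 over all genes.

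Further subunits of the same complexes were taken from lists drawn up from general knowledge. Of 11 SIN3 complex genes listed, 10 were tested and *Brms1* was not. Of the 10, 2, 2, 2, 1 and 1 were called higher in the order of the times, and none lower. *Sap30*, a SIN3 subunit that helps to hold the deacetylases, was called at all 5 times, with log2FC of 1.64, 2.10, 1.78, 0.77 and 0.90. Its calls at 36 and 72 h were the least firm, since leaving out any 1 of 5 of the 6 libraries compared ended each of them (all but Ctr 36 h replicate 3 and all but SE 72 h replicate 2), with log2FC of 0.65 to 0.86 and of 0.69 to 1.06. At 72 h it was 0.64 without the 6 libraries and 0.38 with the range of the sample numbers as a factor, neither called. *Sap18* rose at 6 h (1.69) and *Rbbp7*, a histone-binding subunit, at 12 h (1.00) and 24 h (0.82, and 0.59 without SE 24 h replicate 3, which was not called). Of 9 further CoREST complex genes, 1, 1, 1, 0 and 1 were called higher in the order of the times. Called lower were 2, 2, 2, 2 and 0, and without the 6 libraries 1 at 6 h and 1 at 36 h. Of these genes, *Zmym3* fell from 6 to 36 h, with log2FC of −0.72, −0.81, −0.70 and −0.92. *Kdm5c*, a histone H3 lysine 4 demethylase, rose at 6, 12 and 24 h (0.67, 0.79 and 0.74), and *Hmg20b* rose at 72 h (0.76). Most of these lay close to the fold threshold. The call of *Kdm5c* was lost at 6 h without the 6 libraries (0.61), SE 6 h replicate 3 (0.60), Ctr 12 h replicate 3 or Ctr 36 h replicate 1 (0.66 each), at 12 h without SE 12 h replicate 3 (0.64) and at 24 h without SE 24 h replicate 3 (0.63). That of *Hmg20b* was lost without Ctr 72 h replicate 2 (0.61) and without the 6 libraries (0.70). With the range of the sample numbers as a factor, *Zmym3* (−0.64 and −0.56) and *Kdm5c* (0.59 each) were not called at 6 and 24 h. Nor was *Hmg20b* at 72 h (0.69).

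*Cdyl*, a chromodomain protein that links REST to G9a, was the called gene of 7 further partners, with log2FC of 1.86, 2.22, 1.90 and 1.84 from 6 to 36 h. Of 8 genes that act on REST protein, splicing or transport, *Hap1*, which with huntingtin takes part in holding REST in the cytoplasm, fell from 6 to 36 h (−0.83, −1.39, −1.44 and −1.07), though not at 6 h without SE 6 h replicate 1 (−0.53). *Srrm4*, whose product promotes the truncated splice form of REST, rose at 12 h (0.66), at the threshold, and was not called without Ctr 12 h replicate 3 (0.51), SE 12 h replicate 1 (0.64), SE 12 h replicate 2 (0.66) or the 6 libraries (0.64). Among 5 relatives of the corepressor genes (*Sin3b*, *Hdac3*, *Hdac8*, *Kdm1b* and *Ehmt1*), *Hdac8* fell at 12 h (−0.94). None of the 5 was called at 6 h, and 1 was called lower there without the 6 libraries and without SE 6 h replicate 3 alone. Beside the percentages of all genes given above, these lists are too short for more than their counts.

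The RE1 element was looked for by its 17-letter consensus on both strands within 5 kb of each gene start in GRCm39. It was found near 302 of 18552 annotated genes of the table (1.63%), near none of the 9 genes, and near none of the further subunits, partners and relatives. Of 34 neuronal genes listed from general knowledge as carrying RE1 elements, 11 had a match (32.4%). That list was made by what is known of RE1, so that its share is a description of the list. The lack of a match does not show that an RE1 element is absent, since 23 of the 34 listed genes had none. A match is a likeness of letters and does not show that REST was bound. Of these matches, 8 near genes whose values follow are printed 5′ to 3′ on the strand of the motif, with the motif in capitals and 2 flanking bases on each side.

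Crh, intron, chr3:19748797-19748813, minus strand: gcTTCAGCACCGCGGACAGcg
Bdnf, UTR exon or intron by transcript, chr2:109506390-109506406, plus strand: caTTCAGCACCTTGGACAGag
Chga, coding exon or intron by transcript, chr12:102521497-102521513, plus strand: gaTTCAGCACCTCGGACAGca
Nefh, before the gene start and within Ap1b1, chr11:4899398-4899414, plus strand: gcTTCAGCACCACGGACAGca
Gria2, UTR exon, chr3:80710296-80710312, plus strand: atTTTAGCACCGCGGACAGcg
Scn2a, before the gene start, chr2:65450308-65450324, plus strand: ctTTCAGCACCACGGACAGca
Chgb, intron, chr2:132623714-132623730, plus strand: atTTCAGCACCCCGGACAGct
Grin1, UTR exon, chr2:25209030-25209046, minus strand: gcTTCAGCACCTCGGACAGca

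**Figure D3:**
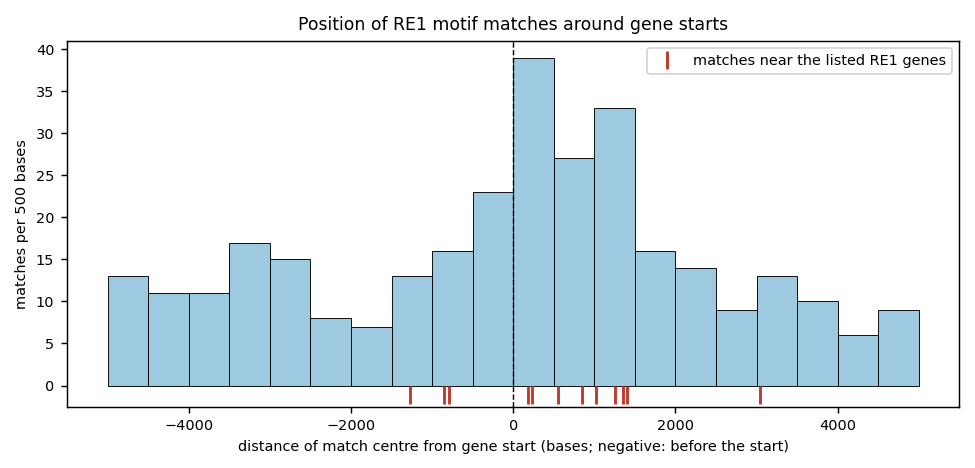
Number of RE1 motif matches per 500 bases (bars, vertical axis) against the distance of the match from the gene start in bases (horizontal axis, negative before the start) for 310 pairs of a match and a gene start, at 302 genes. Of these, 105 lie within 1000 bases of a start, and red ticks mark the matches near the listed RE1 genes.

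The listed RE1 genes moved in both directions while *Rest* was high. Of the 34, 9, 9, 8, 9 and 1 were called higher in the order of the times, and 0, 6, 5, 10 and 7 were called lower. The number called lower was 3 at 6 h without Ctr 72 h replicate 2 or SE 6 h replicate 3 and 1 without Ctr 12 h replicate 2, 11 at 12 h without SE 12 h replicate 2, 8 at 24 h without Ctr 72 h replicate 2, and 4 at 72 h without Ctr 72 h replicate 3. Without the 6 libraries together it was 4 at 6 h. The number called higher at 72 h was 2 without SE 72 h replicate 2, without replicate 3 of that group or without the 6 libraries, and 0 without Ctr 72 h replicate 2. The percentages of all genes called in each direction, given above, were 15.8% and 6.21% at 6 h and 15.2% and 4.21% at 72 h. The median log2FC of the list was 0.07, −0.19, −0.23, −0.34 and −0.32 in the order of the times, beside 0.06, 0.01, 0.04, 0.00 and 0.10 over all genes.

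From 6 to 36 h the 3 largest changes among the called genes of the list came, at each time, from *Crh*, *Scg2*, *Bdnf* and *Vgf*. *Crh*, for corticotropin-releasing hormone, had a log2FC of 4.31 at 6 h (s.e. 0.33, edgeR adjusted p = 8.42e-09), and of 3.39, 2.30 and 3.18 at 12, 24 and 36 h. *Scg2*, a granin of dense-core vesicles, had 3.29, 3.36, 2.56 and 2.38 from 6 to 36 h. *Bdnf*, the brain-derived neurotrophic factor gene, had 2.92, 2.89, 3.24 and 2.55 at those times. *Vgf*, another secreted granin-like protein gene, had 2.52, 2.96, 2.76 and 2.87. Each was called from 6 to 36 h and not at 72 h, where the log2FC was 1.14, 0.33, 1.02 and 0.71 in the order named. These genes are also known to be induced by neuronal activity. *Penk*, for proenkephalin, was the 1 called higher at 72 h (2.39, edgeR adjusted p = 0.0112), a call lost without Ctr 72 h replicate 2 (2.05), without SE 72 h replicate 1 (1.90) and without the 6 libraries (1.63). At that time *Chrm4*, a muscarinic receptor gene (−1.30, edgeR adjusted p = 0.00334), and *Calb1*, for the calcium buffer calbindin (−1.26, edgeR adjusted p = 0.015), were among the 7 called lower, *Calb1* not without SE 72 h replicate 3 (−1.07). The summed neuronal and CA1 pyramidal markers were also below controls at 72 h, and their part in these decreases was not tested. Before 72 h, *Chrm4* was called higher at 6 h (0.75) and lower at 24 and 36 h (−1.02 and −1.96). Its call at 6 h was lost without the 6 libraries (0.29), Ctr 72 h replicate 2 (0.56) or SE 6 h replicate 3 (0.44). It was also lost with no RUVr factor (0.71) and with the range of the sample numbers as a factor (0.30).

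The other genes whose matches are printed above, which were chosen after their values were seen, went both ways. *Chga*, a granin gene, rose from 6 to 36 h (0.86, 1.38, 1.45 and 1.49), while *Chgb*, also a granin gene, fell at 12 h (−1.47, edgeR adjusted p = 0.003) and had −0.67 and −0.41 at 24 and 36 h, which were not called. *Nefh*, for the heavy neurofilament subunit, rose at 6, 12 and 36 h (1.16, 2.80 and 1.68). *Gria2*, an AMPA receptor subunit gene, fell at 12, 24 and 36 h (−1.03, −0.73 and −0.81), and *Scn2a*, a sodium channel gene, at 12 and 36 h (−0.91 and −0.75). *Grin1*, for the obligatory NMDA receptor subunit, fell at 36 h (−0.76). Some of these calls rested on single libraries. That of *Nefh* was lost at 36 h without SE 36 h replicate 3 (0.61), without Ctr 36 h replicate 2 (1.64) and without the 6 libraries (0.62), and at 6 h without SE 6 h replicate 3 (0.92), SE 6 h replicate 2 (1.17) or Ctr 72 h replicate 1 (0.87). With no RUVr factor *Nefh* was not called at 6 h (0.80) or 36 h (1.89). With the range of the sample numbers as a factor, its call at 36 h was lost (1.43). That of *Chgb* was lost without Ctr 12 h replicate 3 (−0.68), that of *Gria2* at 24 h without SE 24 h replicate 2 (−0.66), and that of *Scn2a* at 36 h without SE 36 h replicate 3 (−0.65) and without the 6 libraries (−0.66). Scaling by library total only ended the calls of *Scn2a* (−0.62) and *Grin1* (−0.63) at 36 h.

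**Figure D4:**
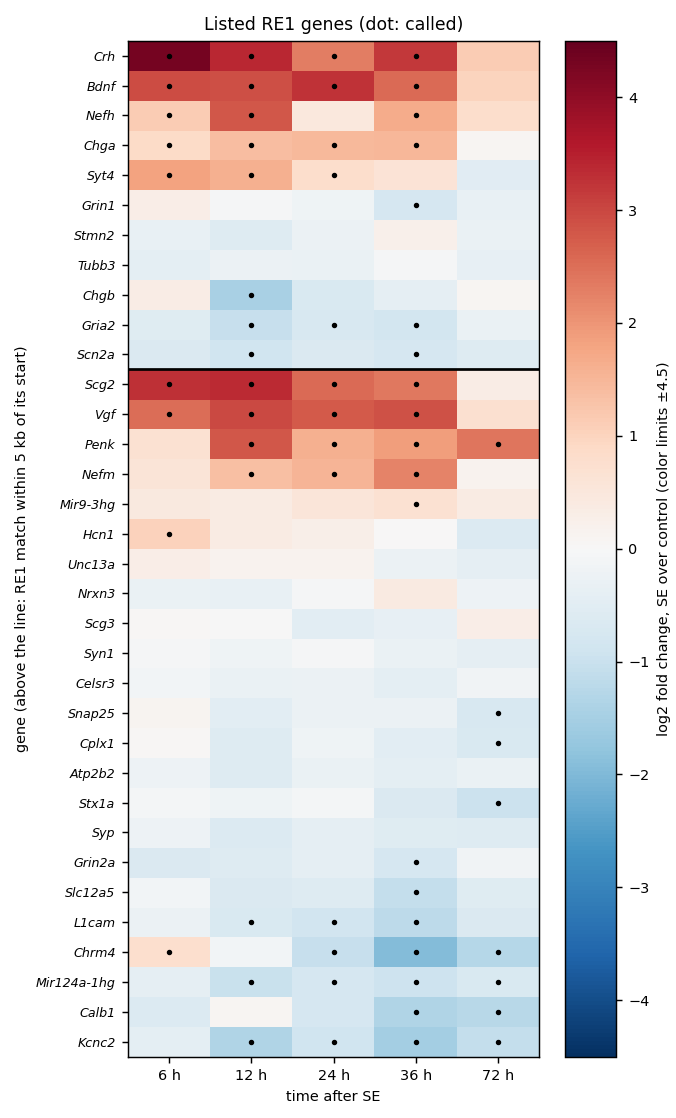
Log2FC of SE over Ctr (color, red higher, blue lower) of 34 listed RE1 genes (rows) at 5 times (columns), with a dot where the gene was called. The 11 genes with an RE1 match within 5 kb of their start are above the line. Both parts hold genes called higher, such as Crh and Scg2, and genes called lower, such as Gria2 and Kcnc2.

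Genes with and without a match were compared by counts. Of the 11 listed genes with a match, 5, 5, 4, 4 and 0 were called higher, and 0, 3, 1, 3 and 0 lower, in the order of the times. Of the 23 with no match, 4, 4, 4, 5 and 1 were called higher and 0, 3, 4, 7 and 7 lower. Taking all genes with a match, whether listed or not, 298 were tested. Of these, 17.8%, 16.8%, 15.1%, 11.4% and 11.4% were called higher. Called lower were 5.37%, 16.8%, 11.4%, 12.8% and 7.05%. Their median log2FC ran from −0.08 at 36 h to 0.06 at 72 h. The widest gap to the percentages of all genes was at 12 h, where 16.8% of genes with a match and 11.4% of all genes were called lower, and the differences were not tested.

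Genes whose pattern over the 24 libraries was most like that of *Rest* were ranked by Pearson's r of log2 CPM among 13726 genes whose mean log2 CPM was 1 or higher. The highest were *Ccl9* (0.965), a chemokine gene, *Cstb* (0.962), for the cathepsin inhibitor cystatin B, *Mall* (0.943), *Pdlim4* (0.940) and *Nav2* (0.939). The lowest were *Btbd2* (−0.929), *Zfp932* (−0.922), *Cdkl1* (−0.919), *Ezh1* (−0.916), a histone H3 lysine 27 methyltransferase gene, and *A930005H10Rik* (−0.916). These values carry the difference between SE and control that all the libraries share. Over the 15 SE libraries alone, the highest were *Coro1c* (0.944), *Nifk* (0.933), *Taf4* (0.924), *Spindoc* (0.919) and *Lyar* (0.918), and none of the 5 was among those over 24 libraries.

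Among the corepressor genes, *Kdm1a* was the most like *Rest*, with r of 0.701 over 24 libraries and 0.797 over the 15 SE libraries, where it ranked 206th of 13726. *Rcor1* had 0.586 and 0.523. *Rcor2* had −0.770 over 24 libraries and −0.08 within the SE libraries, and *Rcor3* had −0.757 and −0.469. For *Sin3a*, *Hdac1*, *Hdac2* and *Ehmt2*, r over 24 libraries was 0.09, −0.27, −0.20 and −0.58, and over the 15 SE libraries −0.08, −0.41, 0.10 and 0.38, so that the sign differed for *Sin3a*, *Hdac2* and *Ehmt2*.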

How the data were processed

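CA1 RNA of 24 libraries in 8 groups of 3 was measured as counts per gene. The authors trimmed reads with Trim Galore 0.6.6, aligned them with STAR 2.7.8a to GRCm39 (GENCODE M26), used SAMtools 1.10, counted with HTSeq 0.13.5 without regard to strand, merged lanes and deposited raw counts. Genes that overlap on opposite strands are therefore uncertain.

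Symbols and positions came from GENCODE M39 on the same build (18552 IDs matched, 95 not). In R 4.3.3, edgeR 4.0.16 normalized counts with TMM and filtered them with filterByExpr (18153 genes kept). All 24 libraries entered one fit, with group terms and a single factor of unwanted variation (RUVr), and 15 comparisons were tested by quasi-likelihood, with p-values adjusted by Benjamini-Hochberg over all genes. The factor was −0.383, 0.797 and −0.374 in Ctr 72 h replicates 1, 2 and 3, and −0.102 to 0.136 in all other libraries. It thus mainly takes up the spread among the Ctr 72 h libraries. These enter the comparisons at 72 h and, through the mean of the 3 Ctr groups, those at 6 and 24 h. The script was tested on simulated data. Calls needed an adjusted p no higher than 0.05 and a log2FC of 0.66 or more in size (1 between SE time points). CPM used TMM library sizes, and log2 CPM a prior count of 2. Alternatives used DESeq2 1.42.0 and limma 3.58.1, other scalings, filters and thresholds, no RUVr factor, the compared groups only, the range of sample numbers or the replicate number as a factor, and each library left out. A fit without the 6 libraries with over 100 summed CPM of ganglion markers was added after the data were seen. A reversal was counted only for values called in either fit.

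The members and lists were chosen with earlier results of these data known. Named genes were the 9 members, at most 3 called genes with the largest change per list and comparison with control, and the 5 genes most and 5 least like *Rest*. Gene names given for matches of the RE1 motif, for a list's membership, for overlaps or in a figure are not part of that rule. A gene of the lists is not reported here.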

Additional observations from a re-analysis of the deposited data

Results flagged for a closer look

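*Rcor1* in Ctr 72 h replicate 2 held 18.2 CPM, the lowest of the 9 control libraries, with a gap to the next that was 0.61 of the whole range, above the critical value of 0.493 (Dixon). The next lowest control held 30.6 CPM. This library also held 1810 summed CPM of ganglion markers, and the part of these in the value was not tested. Chance flags about 1 in 20 groups, and 9 genes were looked at.

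The SE effect on *Rcor3* at 72 h minus that at 12 h was 0.75 (0.754, s.e. 0.22, edgeR adjusted p = 0.0192), a difference between time points. The log2FC was −0.73 at 12 h and 0.02 at 72 h. The call was lost when replicate 1 of Ctr 72 h (0.61), replicate 2 of SE 12 h (0.67) or replicate 1 of SE 72 h (0.68) was left out.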

How the results depend on the processing

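No value called in either fit changed direction under any alternative run. *Rest* was called at all 5 times in all of them and without each single library, with 1 SE library at 72 h in the fit without 6 libraries. The number of the 9 genes called (2, 3, 2, 2 and 2 in the order of the times) was 8, 5, 4, 4 and 2 on the adjusted p alone, and 1 of *Hdac2* from SE 6 h to SE 12 h where the report has 0. At the other log2FC threshold (1 in place of 0.66) it was 1 at 6 h and 1 at 12 h. With the range of the sample numbers (92 to 104, 109 to 122, 162 to 169), an assumed batch, as a factor it was 1 at 12 h (*Rcor2* and *Rcor3* lost) and 1 at 72 h (*Rcor2* lost). The range 92 to 104 holds SE libraries only, among them all of SE 24 h, and SE 72 h shares no range with Ctr 72 h. At 24 and 72 h this fit can therefore separate the range from SE only through other groups. Without the 6 libraries with ganglion genes it was 2 at 12 h and 1 at 72 h (*Rcor2* lost in both), and for the difference of the SE effect it was 1 (*Kdm1a*, 36 h minus 12 h, where the report has 0) and 0 (72 h minus 12 h, where the report has 1). The difference between 72 h and 12 h was also called for 0 genes with no RUVr factor and at the other threshold. Library total only and the compared groups only also lost *Rcor2* at 12 h (−0.71 and −0.74). With single libraries left out the counts were 2 at 12 h in every case, 1 to 2 at 72 h and 0 to 2 for 72 h minus 12 h, and the cause was not tested. Whether the replicate numbers pair the libraries of SE and Ctr groups was not settled. The correlations of their deviations were weak, at −0.201 to 0.181 over 9 pairs, but 11 of 18 libraries correlated best with their own number. With the replicate block the counts were 2, 3, 2, 2 and 2. Depth limits *Rest* most in Ctr 72 h, with as few as 14 counts in a library.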
